A study of Mus musculus with 24 samples.

Results

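Of the 16233 genes in the table, 333 carry a symbol made of Zfp and digits, the mouse naming series for zinc finger proteins. The genes described here are the 245 of them whose deposited value averaged at least 5 over the 24 libraries, leaving out Zfp36, whose product is an RNA-binding protein of another zinc finger type. The other 87 averaged under 5. They were chosen by their mean value over all libraries, so the levels below are a description with no test. Just inside the minimum were Zfp764, Zfp3 and Zfp772, with means of 5.01, 5.01 and 5.01, and just outside were Zfp85, Zfp661 and Zfp446, with means of 4.94, 4.99 and 5.00.

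Most Zfp genes encode transcription factors whose repeated C2H2 fingers, short loops held by zinc, read DNA sequence. Many also carry a KRAB box near the start of the protein. A KRAB box binds the corepressor Trim28 (KAP1), which brings histone methylation and heterochromatin proteins to the bound site, and KRAB zinc finger genes are best known for silencing transposable elements and for keeping imprinted genes in check. They lie largely in clusters of neighbouring copies. A few family members have their own history in fat: Zfp423 marks committed preadipocytes and Zfp516 is an activator of Ucp1.

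Values are normalized read counts, in reads per M (mega) reads of a library. The RNA came from a fat depot under the skin, the inguinal white adipose tissue, of male C57BL6 mice aged 10 to 11 weeks. There were 4 groups of 6 libraries: sham at ZT3 (ZT3_SED), exercise at ZT3 (ZT3_RUN), sham at ZT15 (ZT15_SED) and exercise at ZT15 (ZT15_RUN). ZT is the hour after lights on. At ZT3 the mice were at the start of their rest and at ZT15 at the start of their activity. Exercise was a single bout of 1 hour, and the sham groups spent that hour on an artificial treadmill. The hour between the bout and sampling is not given in the sources used here, and no label ties a library to its own mouse in words, so the tests speak of the variation among libraries, which may be technical.

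The libraries held 18.5 to 34.7 M reads in the listed genes. Adipoq, which defines adipocytes, ranged from 1101 to 3183. In 3 libraries, ZT3_RUN_4, ZT15_SED_3 and ZT15_SED_5, the B cell gene Cd79a was at 99.2, 14.1 and 54.6, against 0.240 to 1.33 in the other 21. The summed level of 10 skeletal muscle genes ranged from 21.0 to 39896 and overlapped between all groups. In bulk tissue, fewer cells of a type and less RNA per cell cannot be told apart.

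Among the 245 genes the median level was 15.4. The mean was 50 or more for 30 genes and 10 or less for 67. No member was at 0 in any library, and the lowest was counted with 15 reads. The most abundant were Zfp106 (mean 254), an RNA-binding protein of nerve and muscle, Zfp91 (222), a ubiquitin ligase, Zfp638 (214), an RNA-binding coregulator of adipocyte differentiation, Zfp207 (210), which acts at the mitotic spindle, Zfp644 (158), a partner of the histone methyltransferase G9a, and Zfp445 (144), which maintains imprints. Zfp445 was the only one of these 6 with a KRAB box. These levels are per read total and not per length, so they do not rank transcripts by number of molecules.

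Most members varied little between libraries. The median standard deviation of log2(value + 1) over the 24 libraries was 0.21, against 0.23 for all 11210 genes with a mean of at least 5. The steadiest were Zfp629, Zfp706 and Zfp146, with coefficients of variation of 0.0616, 0.0620 and 0.0652. Zfp831 varied most (2.49), then Zfp318 (0.467) and Zfp970 (0.406). Zfp831 stood at 69.5, 12.7 and 53.4 in the 3 libraries with high Cd79a and at 0.753 to 2.38 in the other 21. Zfp318, known in B cells for its part in IgD expression, stood at 169, 67.5 and 129 in those 3 and at 42.7 to 59.8 in the others. Zfp831 therefore entered the family through 3 libraries.

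The proteins were split by their KRAB box, a feature that the choice of genes did not use. The letters and the minimum that define a box were set after the values had been seen, so the split is not independent of them. A KRAB box was found in 130 members and not in 113, and 2 had no protein to search. The KRAB members had a median of 12 fingers and a median level of 12.8, and the others 8 fingers and a level of 22.6. KRAB transcripts were poorer in G and C, with a median of 41.3% against 51.1%.

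The first comparison asks what exercise did at ZT15. Exercise there went with lower levels across much of the family, and the shift lay mostly in the KRAB members. In the fit across all genes, 8 Zfp genes fell and 3 rose at an adjusted p under 0.05, where 0.16% and 0.481% of all genes tested did (limma, Benjamini-Hochberg adjustment over 16233 genes). Zfp606, Zfp235, Zfp128, Zfp763, Zfp65, Zfp930, Zfp120 and Zfp526 fell, and all but Zfp526 carry a KRAB box. Zfp948, Zfp655 and Zfp516 rose. Of the 245 members, 185 had a log2 change below 0, with a median of -0.14, against 45.8% of genes with a mean of at least 5, whose median was 0.02. At an unadjusted p under 0.05, 86 members were lower and 4 higher, where 6.01% and 6.65% of all genes were.

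Among the 130 KRAB members, 116 lay below 0, with a median log2 change of -0.24. The range ran from -0.72 for Zfp763 to 0.81 for Zfp948. For 67 of them the 95% interval lay wholly below 0, and for Zfp948 alone wholly above. Among the 113 members without a KRAB box, 68 lay below 0, with a median of -0.03. Whether the 2 classes differ was not tested, since genes of one family in one set of libraries are not independent replicates.

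**Figure D1:**
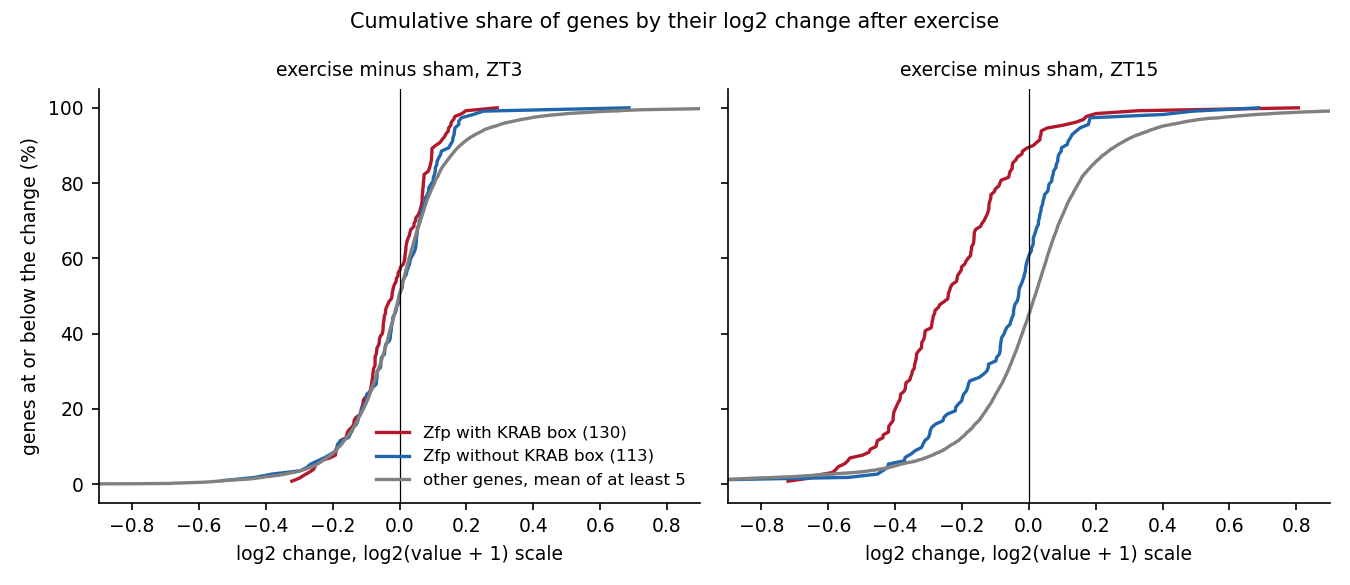
Cumulative percentage of genes (vertical axis) at or below each log2 change of exercise minus sham (horizontal axis) at ZT3 and ZT15, for Zfp genes with a KRAB box (red, 130), without (blue, 113) and other genes with a mean of at least 5 (grey). At ZT3 the 3 curves run together, and at ZT15 the red curve lies to the left, with 116 of 130 genes below 0.

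The shift can be read library by library. The mean of log2(value + 1) over the KRAB members was 3.77 ± 0.10 (SD, n = 6) after exercise at ZT15 and 4.00 ± 0.08 (SD, n = 6) in the sham group. The exercise libraries ran from 3.67 to 3.91 and the sham libraries from 3.89 to 4.08, so the groups overlapped by a single pair: ZT15_RUN_3 lay just above ZT15_SED_1. At ZT3 the same mean was 3.97 ± 0.09 (SD, n = 6) in sham and 3.95 ± 0.13 (SD, n = 6) in exercise, with full overlap. The highest of all 24 was ZT3_RUN_4, at 4.14, the library with the most Cd79a. Members without a KRAB box averaged 4.59 ± 0.03 and 4.65 ± 0.07 (SD, n = 6 each) in exercise and sham at ZT15, and these groups overlapped.

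**Figure D2:**
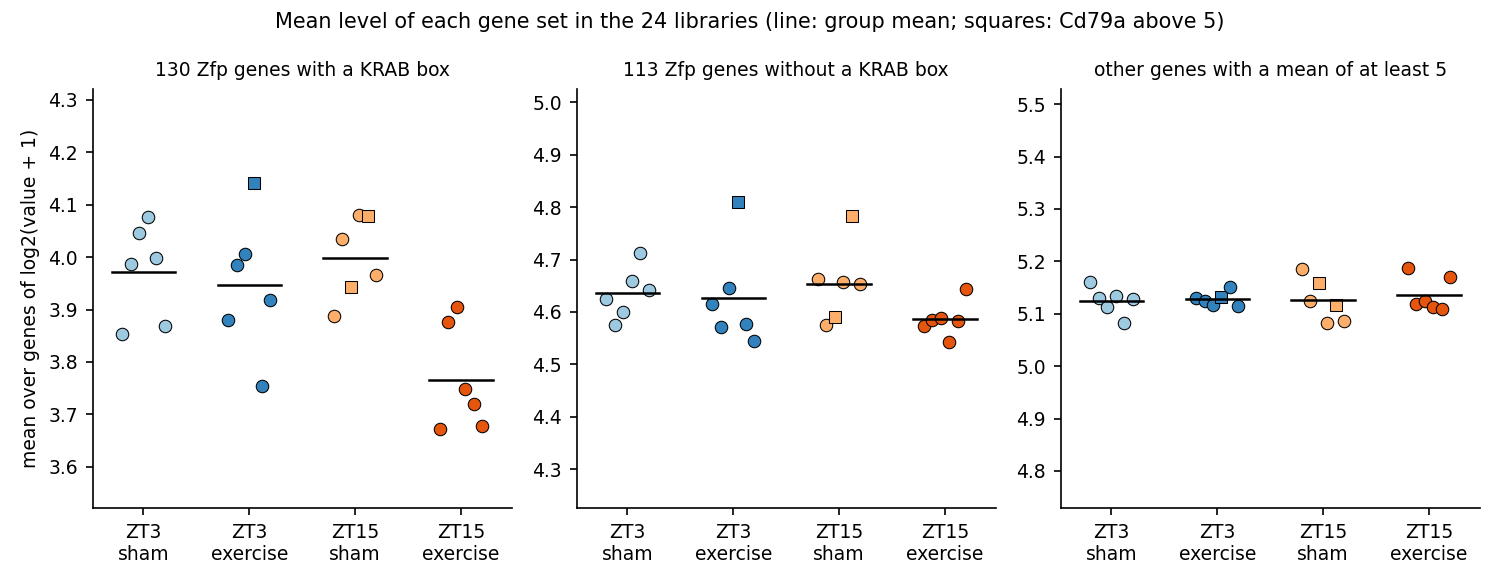
Mean over genes of log2(value + 1) in each of the 24 libraries (points) by group, for Zfp genes with a KRAB box, without one, and other genes with a mean of at least 5; lines are group means (n = 6), squares the 3 libraries with Cd79a above 5, and each panel spans the same log2 range. The ZT15 exercise libraries have KRAB means of 3.67 to 3.91 and hold the 4 lowest of all 24, while the other genes stay within 5.08 to 5.19 in all libraries.

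Markers of other cell types were looked at in these groups too, and none passed the threshold. All 10 lymphocyte markers were lower after exercise at ZT15, with a median log2 change of -1.58. Their summed level ran from 7.41 to 689 (median 13.8) in ZT15_SED and from 5.47 to 13.0 (median 9.17) in ZT15_RUN. All 10 skeletal muscle genes were higher, with a median of 0.87. Their sums ran from 21.0 to 35634 (median 821) in ZT15_SED and from 150 to 39896 (median 1241) in ZT15_RUN. No lymphocyte or muscle gene had an unadjusted p under 0.05 (limma). All 5 nerve markers were higher too, with a median of 0.58 and sums from 91.5 to 176 and from 108 to 284. Higher were also 5 of 5 endothelial (median 0.11), 4 of 5 fibroblast (0.24) and 6 of 8 adipocyte markers (0.17). So were 5 of 5 brown or beige fat markers (0.37). Lower were 3 of 3 mammary epithelial (-0.22) and 3 of 5 macrophage markers (-0.01). Markers of 1 cell type are not independent of each other. With lymphocyte and muscle scores in the model, 111 of 130 KRAB members lay below 0 (median -0.19), and 57 of the 113 others (median -0.01). The part of nerve was not tested. Without the 3 libraries high in Cd79a, 116 of 130 KRAB members lay below 0, with a median of -0.22. The family as a whole then had 185 of 245 below 0 and a median of -0.13. Single calls were less steady: Zfp606 alone passed in that fit (adjusted p = 0.0469), with Zfp235 at 0.0510 and Zfp948 at 0.0518.

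The change varied with level. KRAB members with a mean of 5 to 10, 10 to 20 and 20 to 50 had median log2 changes of -0.33, -0.24 and -0.17, and the 8 with a mean of 50 or more had 0.04. Genes outside the zinc finger families showed a smaller gradient of the same sign, with medians of -0.07, -0.04, 0.00 and 0.07 in the same level ranges. Members without a KRAB box stood at -0.21, -0.04, -0.01 and 0.00. Other genes with a transcript GC content below the KRAB median, 733 in number, had 370 below 0. Abundant KRAB genes such as Zfp445 (0.10, SE 0.07) and Zfp809 (0.05, SE 0.15), the second a silencer of retroviral elements picked after its values were seen, did not pass the test.

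**Figure D3:**
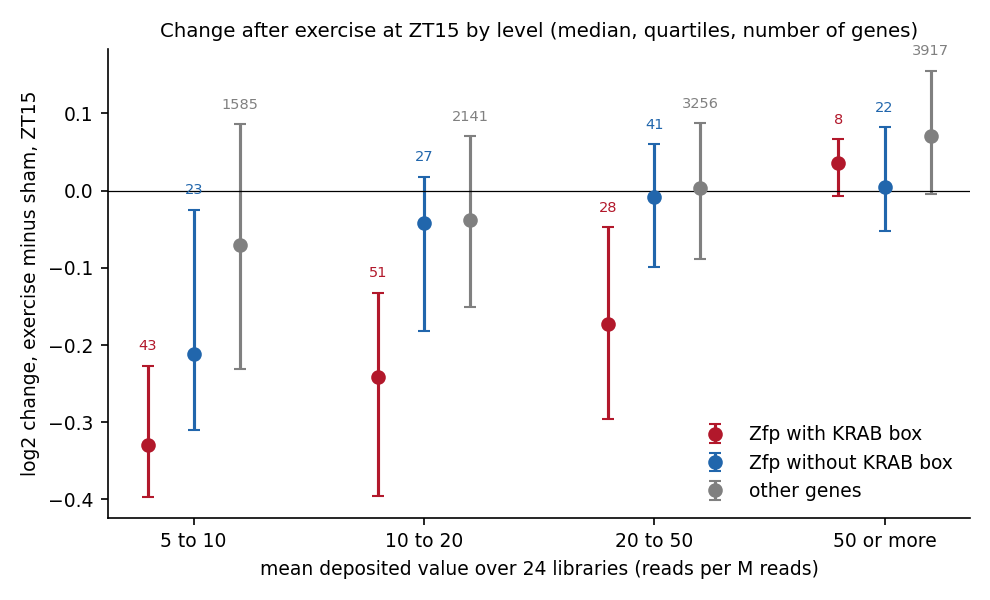
Median log2 change of exercise minus sham at ZT15 (vertical axis) by mean deposited value (horizontal axis, 4 ranges), with bars from the lower to the upper quartile and the number of genes above each, for Zfp genes with and without a KRAB box and other genes. The KRAB medians are -0.33, -0.24 and -0.17 in the lower 3 ranges and 0.04 in the highest, where only 8 genes lie.

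The individual genes show the size of the change. Zfp606, a KRAB gene with 13 fingers, had a lowest, median and highest value of 13.6, 15.3 and 19.1 in ZT15_RUN and of 19.9, 23.9 and 26.4 in ZT15_SED. Every exercise library was below every sham library, and Zfp606 fell by 0.55, in log2 units (SE 0.10, adjusted p = 0.0170, limma). At ZT3 its groups overlapped, with a change of -0.08 (SE 0.10).

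Zfp235, with 17 fingers, stood at 7.09, 8.74 and 10.0 in ZT15_RUN and at 11.1, 11.6 and 13.0 in ZT15_SED, lowest, median and highest. The groups were again apart, and it fell by 0.42 (SE 0.08, adjusted p = 0.0170, limma). Zfp128 stood at 2.46, 4.97 and 5.59 against 6.86, 7.26 and 7.48, also apart, and fell by 0.57 (SE 0.12, adjusted p = 0.0271, limma). The lowest of these, ZT15_RUN_5, is also the shallowest library. Zfp763 stood at 4.47, 5.52 and 8.55 against 9.34, 9.98 and 11.2 and showed the largest drop of the 8, 0.72 (SE 0.15, adjusted p = 0.0281, limma).

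Zfp930 (8.52 against 12.5, medians of exercise and sham) fell by 0.48 without overlap of the groups. Zfp65 (12.3 against 17.1), Zfp120 (21.0 against 28.3) and Zfp526 (7.90 against 11.6) fell by 0.41, 0.40 and 0.45, each with some overlap. Their adjusted p-values were 0.0385, 0.0350, 0.0445 and 0.0373 (limma). Zfp120 missed the threshold once 3 blocks of 8 consecutive title numbers, each with 2 libraries of every group, entered the model (adjusted p = 0.0515, limma). Over the whole family, 14 genes had all 6 exercise libraries below all 6 sham libraries, where 0.745% of all genes did, and 12 of the 14 carry a KRAB box. Besides Zfp606, Zfp235, Zfp128, Zfp763 and Zfp930 these were Zfp444, Zfp28, Zfp141, Zfp764, Zfp39, Zfp41, Zfp983, Zfp994 and Zfp952, which did not pass the adjusted test.

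The 3 genes that rose have little in common. Zfp948 is a KRAB gene with 15 fingers. It stood at 21.8, 26.7 and 41.7 in ZT15_RUN and at 14.1, 15.5 and 18.8 in ZT15_SED, with no overlap, and rose by 0.81 (SE 0.14, adjusted p = 0.0121, limma). Zfp655, a partner of the signalling protein Vav with no KRAB box found, stood at 91.2, 111 and 130 against 68.7, 80.3 and 87.2, also apart, and rose by 0.49 (SE 0.10, adjusted p = 0.0271, limma). Zfp948 and Zfp655 were the 2 members with all exercise libraries above all sham libraries, where 1% of all genes were.

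Zfp516, the cold-induced activator of Ucp1 in brown and beige fat, stood at 39.0, 50.5 and 77.8 in ZT15_RUN and at 27.7, 32.8 and 40.1 in ZT15_SED. The groups overlapped at the edge, and it rose by 0.69 (SE 0.15, adjusted p = 0.0330, limma). At ZT3 its change was 0.11 (SE 0.15). None of the 5 brown or beige fat markers, Ucp1 among them, passed the test, and their median log2 change was 0.37.

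**Figure D4:**
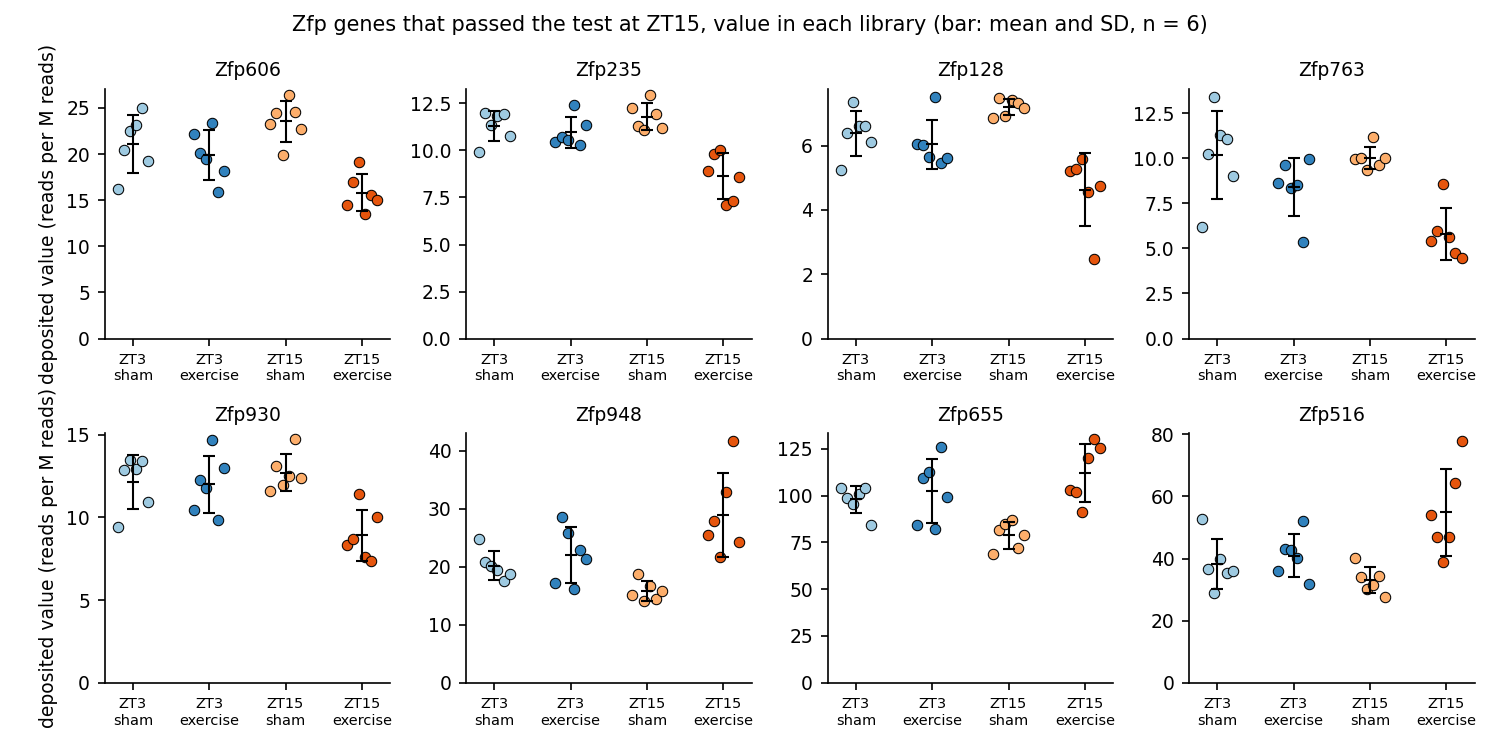
Deposited value (vertical axis, reads per M reads, from 0) in each of the 24 libraries for 5 Zfp genes that fell and 3 that rose after exercise at ZT15; points are libraries, bars the mean and SD of 6. Zfp606 runs from 13.6 to 19.1 after exercise at ZT15 and from 19.9 to 26.4 in sham, and Zfp948 from 21.8 to 41.7 against 14.1 to 18.8.

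Single calls moved with single libraries, and the family's median moved little. Leaving out 1 library at a time, the count of members called lower was 0 without ZT15_RUN_4, 1 without ZT15_RUN_5, 2 without ZT15_RUN_6, ZT15_SED_3, ZT15_SED_4, ZT15_SED_5 or ZT15_SED_6, 3 without ZT15_RUN_1 or ZT15_SED_2, 4 without ZT15_SED_1 and 5 without ZT3_SED_4. It was 19 without ZT15_RUN_3 and 20 without ZT3_RUN_4. The whole table moved in the same fits: of all genes, 0.00616% were called lower without ZT15_RUN_4 or ZT15_RUN_5, 0.45% without ZT15_RUN_3 and 0.696% without ZT3_RUN_4. The count called higher was 1 without ZT15_SED_5, ZT15_SED_6, ZT15_RUN_4, ZT15_RUN_5 or ZT15_RUN_6. Over the same 24 fits the number of members below 0 stayed between 180 and 192, and the KRAB median between -0.28 and -0.21. Zfp948 passed in all 24 fits, and Zfp606 and Zfp235 in 22 each.

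Promoters of the genes that moved were read from the RefSeq promoter table (GRCm38.p6), in which 206 members were found by symbol. Zfp606, Zfp120 and Zfp65 are shown because they fell and hold a CCAAT box, Zfp606 and Zfp120 together with an ETS core, Zfp235 because it fell without holding any motif searched, and Zfp948 because it rose. The stretches end at the base before the start site and lie at chr7:12478055-12478304 (plus strand, Zfp606), chr2:150136679-150136928 (minus, Zfp120), chr13:67729174-67729423 (minus, Zfp65), chr7:24132122-24132371 (plus, Zfp235) and chr17:21566728-21566977 (plus, Zfp948). Capitals mark matches on either strand to CCAAT (the CCAAT box), CCGGAA (the ETS core) and GGGCGG (the SP site).
Zfp606: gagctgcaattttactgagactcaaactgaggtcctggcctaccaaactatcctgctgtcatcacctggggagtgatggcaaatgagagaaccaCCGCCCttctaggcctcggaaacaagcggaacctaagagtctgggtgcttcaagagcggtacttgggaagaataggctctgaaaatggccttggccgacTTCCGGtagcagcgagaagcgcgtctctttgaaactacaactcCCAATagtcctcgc
Zfp120: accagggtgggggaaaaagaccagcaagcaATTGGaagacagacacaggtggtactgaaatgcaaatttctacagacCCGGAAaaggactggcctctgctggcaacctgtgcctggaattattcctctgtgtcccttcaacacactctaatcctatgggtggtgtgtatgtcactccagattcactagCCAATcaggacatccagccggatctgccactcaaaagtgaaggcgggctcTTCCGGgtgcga
Zfp65: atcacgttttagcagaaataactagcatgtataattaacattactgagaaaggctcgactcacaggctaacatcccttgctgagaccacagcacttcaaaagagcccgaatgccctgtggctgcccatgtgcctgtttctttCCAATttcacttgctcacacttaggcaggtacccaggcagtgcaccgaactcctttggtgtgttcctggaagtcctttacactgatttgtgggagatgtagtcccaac
Zfp235: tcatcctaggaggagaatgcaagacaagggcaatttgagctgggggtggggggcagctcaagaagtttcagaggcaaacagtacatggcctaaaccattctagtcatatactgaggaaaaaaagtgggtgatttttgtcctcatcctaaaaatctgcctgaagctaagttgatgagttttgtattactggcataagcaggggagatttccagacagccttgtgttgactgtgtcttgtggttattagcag
Zfp948: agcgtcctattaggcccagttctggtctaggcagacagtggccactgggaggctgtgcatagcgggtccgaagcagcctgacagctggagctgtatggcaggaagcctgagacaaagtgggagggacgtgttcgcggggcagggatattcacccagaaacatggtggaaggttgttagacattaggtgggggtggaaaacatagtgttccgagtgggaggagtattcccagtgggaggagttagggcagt

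Zfp606 holds all 3 motifs, with the CCAAT box close to the start site. Zfp120 holds the CCAAT box and the ETS core on both strands, and Zfp65 a CCAAT box. Neither Zfp235 nor Zfp948 holds a match in this window. A CCAAT box was present in 58.0% of 119 KRAB members, 41.2% of 85 members without a KRAB box, 36.2% of 8934 promoters of genes with a mean of at least 5 and 34.5% of all 27025 promoters. The ETS core was present in 37.8%, 21.2%, 22.8% and 12.2% of the same sets, and the SP site in 35.3%, 56.5%, 60.4% and 32.9%. Of the 7 promoters found for the 8 genes that fell, 6 held a CCAAT box, 2 an ETS core and 4 an SP site. The 2 found for the 3 genes that rose held 0, 1 and 1. For the 12 genes that fell from ZT3 to ZT15 in exercise, described below and in part the same, 11 promoters were found. Of these, 7 held a CCAAT box, 5 an ETS core and 4 an SP site. Whether any motif goes with the fall was not tested. A further 5 motifs, CACGTG (E-box), TGACGTCA (CRE) with its core TGACG, GCGCATGC (NRF1 core) and AAGATGG (YY1 core), were present in 9.2%, 3.4%, 24.4%, 4.2% and 3.4% of KRAB promoters and in 8.7%, 2.9%, 27.7%, 4.7% and 4.2% of those of genes with a mean of at least 5. A match is a string of letters and not a bound site.

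The same genes and values were also grouped by position in the genome, which is not independent of the KRAB split. By gene order in RefSeq, with at most 3 other genes in between, 132 of the 244 members that could be placed had a Zfp neighbour from the list, in 35 runs, and 112 stood alone. KRAB members lay below 0 at ZT15 both in runs (90 of 98, median -0.25) and alone (26 of 32, median -0.17). Members without a KRAB box did so in 24 of 33 cases in runs (median -0.08) and 44 of 80 alone (median -0.01).

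The longest run holds 18 genes from Zfp677 to Zfp40, all with a KRAB box. In it 17 genes lay below 0 at ZT15, with a median of -0.32 over the run. The exception was Zfp948, at 0.81, between Zfp52 (-0.17) and Zfp983 (-0.34). Zfp229 and Zfp946, at -0.04 and -0.02, also stood near 0. At ZT3 10 of the 18 lay below 0, with a median of -0.03. The run from Zfp871 to Zfp563, which holds Zfp763 and Zfp952, had 6 of 7 below 0 (median -0.34), the run from Zfp58 to Zfp273, which holds Zfp65, 6 of 6 (median -0.24), and the run from Zfp712 to Zfp953 5 of 5 (median -0.36). In the other 3 runs of at least 5 genes the medians were nearer 0: 8 of 10 from Zfp84 to Zfp146 (median -0.18), 7 of 7 from Zfp398 to Zfp467 (median -0.14) and 4 of 5 from Zfp560 to Zfp846 (median -0.10).

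**Figure D5:**
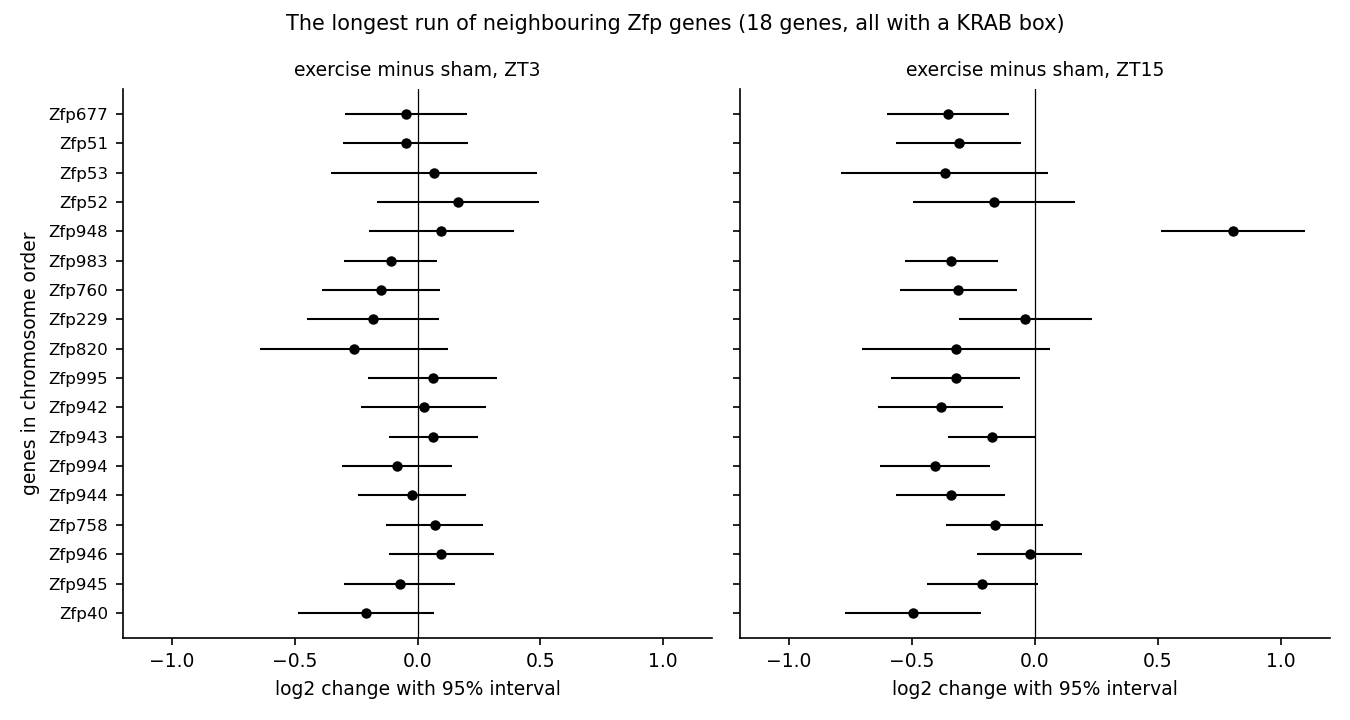
Log2 change of exercise minus sham with its 95% interval (horizontal axis) at ZT3 and ZT15 for the 18 genes of the longest run of neighbouring Zfp genes, in chromosome order from top to bottom. At ZT15 17 of the 18 lie below 0 and Zfp948 alone lies far above it, at 0.81.

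Near-identical copies could share reads. For each member the transcript with the longest coding sequence was searched for stretches of 38 bases, the read length, shared with other genes. Of 243 members, 189 shared under 5%, 23 over 20% and 8 over 50%. Among the 85 KRAB members under 5%, 75 lay below 0 at ZT15, with a median of -0.23. Of the 11 genes that passed the test there, Zfp65 shared 14.7%, Zfp235 8.87%, Zfp120 3.06% and Zfp606 0%. The value of Zfp970, which shared 70.5%, is uncertain.

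At ZT3 no clear shift of the family was seen after exercise with all libraries in the fit. No member passed the test with limma (0% of all genes did), edgeR or DESeq2, and 132 of 245 lay below 0, with a median of -0.01, against 50.4% of genes with a mean of at least 5. No member had separate groups of libraries in either direction, where 0.0246% of all genes were lower and 0.0493% higher without overlap. At an unadjusted p under 0.05, 5 members were lower and 1 higher, where 1.12% and 1.15% of all genes were. The smallest p-values belonged to Zfp703, a corepressor of the NET family, Zfp975 and Zfp267.

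Zfp703 stood at 15.4, 21.2 and 33.8 in ZT3_RUN and at 24.1, 30.2 and 48.0 in ZT3_SED, lowest, median and highest, and the groups overlapped. Its change was -0.53 (SE 0.21), with Zfp975 at -0.30 (SE 0.12) and Zfp267 at -0.32 (SE 0.13), each with adjusted p = 0.989 (limma). The KRAB members had a median change of -0.02, and 57 of the 113 others lay below 0. Without the 3 libraries high in Cd79a, one of which is in ZT3_RUN, 175 of 245 members lay below 0, with a median of -0.05, and without ZT3_RUN_4 alone the number was the same. The KRAB median was then -0.08, with 98 of 130 below 0, against 73 of 130 with all libraries. With lymphocyte and muscle scores in the model, 87 of 130 KRAB members lay below 0 (median -0.06), and 63 of the 113 others (median -0.02).

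Whether the response to exercise depended on the time was asked with the interaction, the change at ZT15 minus the change at ZT3. No member passed with limma (0% of all genes did). At an unadjusted p under 0.05, 33 members were lower and 6 higher, where 4.02% and 3.83% of all genes were. DESeq2 on the recovered reads called 1 higher, Zfp948, and 1 lower, Zfp831, the gene high in the 3 libraries with much Cd79a, where it called 0.173% of all genes higher and 1.3% lower. The smallest p-values with limma belonged to Zfp948 (0.71, SE 0.20), Zfp65 (-0.44, SE 0.13) and Zfp235 (-0.38, SE 0.11), each with an adjusted p of 0.583. Over the family 188 of 245 lay below 0 (46.2% of genes with a mean of at least 5), with a median of -0.14, and among KRAB members 115 of 130, with a median of -0.22. So for no single gene was a difference between the 2 times established in this test, and the intervals are wide: for Zfp606 it ran from -0.78 to -0.16.

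Time of day without exercise changed few members, as it changed few genes of the whole table. Between the sham groups, ZT15 against ZT3, Zfp970 rose and Zfp703 fell, where 0.616% and 0.561% of all genes did, and 105 of 245 members lay below 0, with a median of 0.03, against 44.9% of genes with a mean of at least 5. Zfp703 and Zfp9 had all sham libraries at ZT15 below all at ZT3, and Zfp970 all above, where 1.31% and 1.2% of all genes did. Zfp703 stood at 12.7, 18.2 and 21.8 in ZT15_SED and at 24.1, 30.2 and 48.0 in ZT3_SED, with no overlap, and fell by 0.85 (SE 0.21, adjusted p = 0.0458, limma). Zfp970 stood at 28.8, 45.0 and 54.5 against 18.1, 23.1 and 25.6, also apart, and rose by 0.88 (SE 0.21, adjusted p = 0.0404, limma). Both calls were lost with median centring and with quantile normalization. The Zfp703 call was also lost without the 3 libraries high in Cd79a and with lymphocyte and muscle scores in the model. Leaving out 1 library at a time, Zfp970 passed in 13 of 24 fits and Zfp703 in 8.

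Between the exercise groups, ZT15 against ZT3, 12 members fell and 3 rose, where 1.63% and 2.56% of all genes did. This comparison uses the same ZT15_RUN libraries as the exercise comparison at ZT15, so the 2 are not independent. The genes that fell were Zfp120, Zfp65, Zfp235, Zfp626, Zfp526, Zfp930, Zfp974, Zfp28, Zfp39, Zfp994, Zfp81 and Zfp316, by 0.30 (Zfp316) to 0.47 (Zfp81). Zfp316 had an adjusted p of 0.0541 (limma) once those title blocks were fitted too. Of these, 10 carry a KRAB box, Zfp526 and Zfp974 being the others. Zfp626 stood at 14.4, 15.6 and 18.1 in ZT15_RUN and at 18.1, 19.5 and 27.3 in ZT3_RUN, with no overlap. It and Zfp235 were the 2 members whose ZT15 exercise libraries all lay below those at ZT3, and none lay above, where 0.764% and 1.5% of all genes did.

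Zfp970, Zfp612 and Zfp91 rose. Zfp970 stood at 33.8, 45.2 and 65.3 in ZT15_RUN and at 14.3, 26.6 and 41.3 in ZT3_RUN, and rose by 0.85 (SE 0.21). Its changes between times were of like size in sham and exercise, and the difference between them was -0.02 (95% interval from -0.65 to 0.60). Zfp612, a KRAB gene, stood at 7.92, 11.7 and 17.4 against 4.08, 6.44 and 9.29 and rose by 0.73 (SE 0.20). Zfp91 stood at 215, 243 and 287 against 162, 203 and 226 and rose by 0.29 (SE 0.08). These 3 pairs of groups overlapped, and the adjusted p-values were 0.0244, 0.0402 and 0.0305 (limma).

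In that comparison 184 of 245 members lay below 0 (47% of genes with a mean of at least 5), with a median of -0.11, and 112 of 130 KRAB members, with a median of -0.20. With only the 2 exercise groups in the fit no member passed in either direction, where 0.548% of all genes were called higher and 0.123% lower. Leaving out 1 library at a time, the count called lower was 0 without ZT15_RUN_6, 1 without ZT15_RUN_5, 2 without ZT3_RUN_4, ZT15_RUN_1 or ZT15_RUN_4, 3 without ZT3_RUN_3, 6 without ZT3_RUN_1 or ZT3_RUN_2, 7 without ZT3_RUN_6 or ZT15_SED_4 and 24 without ZT3_RUN_5. Over all genes 0.702% were called lower without ZT15_RUN_6 and 1.86% without ZT3_RUN_5. The count called higher was 0 without ZT15_RUN_4 and 1 without ZT3_RUN_1, ZT3_RUN_2, ZT3_RUN_4, ZT15_RUN_1, ZT15_RUN_5 or ZT15_RUN_6.

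Besides Zfp516, some Zfp genes with a known part in fat or development were chosen after their values were seen. Of these, Zfp423, Zfp521, Zfp467 and Zfp568 did not pass the test after exercise at either time. Zfp423, which commits cells to the fat lineage and restrains beige identity, had medians of 39.9 in ZT3_SED, 36.7 in ZT3_RUN, 44.8 in ZT15_SED and 46.4 in ZT15_RUN, and its groups overlapped. Zfp521, which opposes fat cell commitment, had medians of 32.6, 33.7, 31.7 and 30.4 in the same order. Zfp467, which favours fat over bone fate, had medians of 23.2, 19.5, 26.7 and 20.8, with changes of -0.28 (SE 0.19) at ZT3 and -0.31 (SE 0.19) at ZT15. Zfp568, which represses a placental transcript of Igf2, had 18.9, 18.5, 21.1 and 19.2.

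Related genes were looked at beside the family after exercise at ZT15. The 87 Zfp genes averaging under 5 had 77 below 0 and a median of -0.25. Zfp647, Zfp454 and Zfp93 among them passed the test, falling by 0.55, 0.54 and 0.46, where 0.16% of all genes were called lower. Their adjusted p-values were 0.0178, 0.0292 and 0.0308 (limma). In other zinc finger families, 22 of 38 Zbtb genes lay below 0 (median -0.03), as did 13 of 19 Zscan and Zkscan genes (median -0.05). Of the Klf and Sp genes, 13 of 19 lay above 0 (median 0.07). Over all genes 49.3% lay below 0, with a median of 0.003. Among genes with a mean of at least 5 it was 45.8%, with a median of 0.02. The lists of other families had no minimum mean. Whether the families differ was not tested. Of the Zbtb, Zscan, Zkscan, Klf and Sp genes only Zbtb21 passed the test, rising by 0.59, where 0.481% of all genes were called higher. Of 33 corepressors that KRAB zinc fingers work through, such as Trim28 and Setdb1, none passed, 22 lay below 0 and the median was -0.06.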

How the data were processed

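RNA from 24 libraries of inguinal white adipose tissue was sequenced after rRNA depletion with a stranded kit, per the labels' protocols. The submitters' processing notes name featureCounts, STAR, limma 3.48.3 and Subread 1.6.2. Neither build, annotation nor strand setting is given in the sources used here, so reads of overlapping or antisense genes cannot be told apart. The deposited table holds normalized signal, 1 column per library. All values (100%) came out as whole reads within 0.01 of a read, and the scale equalled edgeR's TMM effective library sizes with a largest relative difference of 4.44e-16. The deposited signal is thus a count per M (mega) reads of a TMM-scaled library.

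Members and lists were chosen with earlier results of these data known. Tests used log2(value + 1), a scale on which changes of low genes come out too small. A single limma 3.58.1 model (R 4.3.3, lmFit and eBayes with trend) held the 4 groups, and p-values were adjusted by Benjamini-Hochberg over 16233 genes with a threshold of 0.05. Every log2 change is on this scale. The fit was run on simulated counts with known changes. These had the same spread for all genes and no differences in lymphocyte or muscle content. They therefore cannot show how such differences affect the calls. Count tests on the recovered reads (edgeR 4.0.16, DESeq2 1.42.0) were alternatives, as were other scalings, filters and sets of libraries.

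Genes named are the members past the threshold in any comparison (at most 12 per direction), the 3 of smallest p where none passed, the 6 of highest mean, the 3 of highest and of lowest coefficient of variation, those at the edge of the minimum, and, from other lists, up to 4 past the threshold or the 2 most abundant. Other genes, including those listed for separate groups or for their place in a run, were chosen after their values were seen. KRAB boxes were called where at least 12 of 20 conserved letters matched in the longest protein of a gene, translated from GENCODE M21 transcripts in place of the planned RefSeq proteins, and fingers by the C2H2 spacing pattern. The letters and the minimum for the KRAB box were set after the values had been seen. Promoters come from RefSeq (GRCm38.p6), and the first window listed for a symbol was used.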

Additional observations from a re-analysis of the deposited data

Results flagged for a closer look

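Among 152 groups of 6 libraries (37 named genes and the family mean), 16 held a library far from the other 5 by Dixon's criterion, which chance alone meets in about 1 in 20 groups. Some of the genes were named for their high variation, and the groups share libraries, so the 16 cannot be judged against that rate. In ZT3_RUN, library ZT3_RUN_4 was the highest for Zfp831 (69.5, next 1.53), Zfp318 (169, next 54.3), Zfp39 (13.8, next 10.2) and Zfp128 (7.51, next 6.04). In ZT15_SED, library ZT15_SED_5 was the highest for Zfp831 (53.4, next 12.7) and Zfp318 (129, next 67.5). Both libraries have high Cd79a, at 99.2 and 54.6, and the part of lymphocytes in these values was not tested.

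Zfp106 was high in 1 library of each of 3 groups: ZT3_RUN_5 (312, next 226), ZT15_SED_1 (427, next 247) and ZT15_RUN_6 (474, next 307). The muscle myosin Myh4 stood at 5208, 18297 and 22113 in these libraries, the highest value of each group, and the part of muscle in the Zfp106 values was not tested.

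Zfp763 was apart in 3 groups, low in ZT3_RUN_5 (5.37, next 8.34) and high in ZT15_SED_4 (11.2, next 10.0) and ZT15_RUN_3 (8.55, next 5.94). Zfp65 was high in ZT15_RUN_3 (14.8, next 12.4). Zfp128 was low in ZT15_RUN_5 (2.46, next 4.55). Zfp207 was high in ZT3_SED_4 (212, next 195), and Zfp267 low in ZT3_SED_1 (31.8, next 46.3).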

How the results depend on the processing

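After exercise at ZT15 (3 Zfp genes called higher and 8 lower), the counts higher and lower were 3 and 5 with median centring, 2 and 2 with quantile normalization, 2 and 3 with only the groups compared, 0 and 1 without the 3 libraries high in Cd79a, 0 and 0 with quantile normalization as well (added after seeing the data), 3 and 23 with DESeq2 and 3 and 22 at a threshold of 0.1. Calls over all genes (78 and 26) moved too, to 139 and 16, 67 and 5, 80 and 15, 16 and 6, 9 and 1, 324 and 217, and 211 and 89. For ZT15 against ZT3 in exercise (3 and 12) they were 5 and 4, 1 and 2, 0 and 0, 3 and 8, 1 and 0, 5 and 28 and 5 and 23 in the same order, and 4 and 21 with lymphocyte and muscle scores; over all genes (415 and 265), 543 and 172, 274 and 152, 89 and 20, 385 and 281, 283 and 232, 759 and 816, 750 and 537, and 620 and 561. For ZT15 against ZT3 in sham (1 and 1) they were 0 and 0 with either scaling, 1 and 2 with only the groups compared, blocks of title numbers, DESeq2 or the threshold of 0.1, 3 and 1 with the scores, and 1 and 0 without the 3 libraries, with or without quantile normalization, while calls over all genes (100 and 91) ran from 70 to 323 higher and 72 to 299 lower. For the interaction DESeq2 called 1 and 1, and 28 and 211 over all genes. Why the counts moved was not tested, beyond fewer samples where libraries were left out.

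Leaving out 1 library at a time, counts ran from 1 to 3 higher and 0 to 20 lower (exercise at ZT15), 0 to 4 and 0 to 24 (time in exercise), 0 to 1 and 0 to 2 (time in sham), and stayed at 0 and 0 for exercise at ZT3 and the interaction. Family medians ran from -0.17 to -0.12 (exercise at ZT15), -0.05 to 0.02 (exercise at ZT3), -0.16 to -0.10 (interaction), 0.01 to 0.05 (time in sham) and -0.14 to -0.07 (time in exercise). Members below 0 ran from 180 to 192, 108 to 175, 177 to 193, 93 to 118 and 173 to 188. No named gene changed direction in these fits. Median centring moved the median of all genes at ZT15 to 0.06. There the KRAB median was -0.19, with 108 of 130 below 0, and 48 of 113 others. No paired analysis was possible because each title number belongs to 1 library. The fit with 3 blocks of consecutive title numbers, which the labels do not call a batch, lost the calls of Zfp120 (exercise at ZT15) and Zfp316 (time in exercise) and of no other named gene. Within the blocks the family median for exercise at ZT15 was -0.19, -0.11 and -0.10. Genes with few reads carry the largest counting error.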
